A study of Mus musculus with 10 samples.

Results

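The genes examined here are the 42 collagen chain genes of the mouse autosomes, each of which encodes 1 α chain of a collagen. They were taken by symbol (Col, a type number, the letter a and a chain number) from the 20807 protein-coding genes on chromosomes 1 to 19 in GENCODE release M21, a rule that uses no measured value. The data are a list of 11094 RBPJ peaks obtained by ChIP-seq, the sequencing of immunoprecipitated chromatin. RD1 cells, the source of all samples, are labelled as mouse brain pericytes and were untreated and grown in pericyte medium on dishes coated with collagen I. The series has 10 samples of these cells in 5 groups (RBPJ, H3K4me1, H3K4me3, histone H3 and input chromatin) with 2 replicates each; no deletion of RBPJ and no Notch ligand or inhibitor is labelled. Only the peak files of RBPJ were used, and data of the remaining 8 samples were not used here. Both RBPJ files held the same intervals and were counted as 1 list, which gives positions on GRCm38 and no height, score or depth. Neither a spread between replicates nor a test over samples could be had, so the 95% exact (Clopper-Pearson) binomial intervals below cover counting error only. They also treat genes as independent, although neighbouring genes can share peaks.

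Collagens are trimers of α chains wound into a triple helix, and they are grouped by what they assemble into: striated fibrils, sheets such as the type IV network of basement membranes, beaded filaments, molecules attached to fibrils (FACITs), transmembrane collagens and multiplexins. Pericytes lie within the basement membrane of capillaries, and mural cells and fibroblasts are known sources of collagen around vessels. RBPJ is the DNA-binding factor through which cleaved Notch receptors act on genes; it recognises the core sequence TGGGAA, and some Notch targets carry a pair of such sites facing each other. A peak is a stretch of the genome called as enriched for RBPJ; it says neither that a neighbouring gene is regulated nor, where absent, that a gene is unbound.

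RBPJ peaks lay near 24 of the 42 collagen genes, but mostly far from their start sites. A gene was counted when a peak centre fell in its body or in its regulatory domain, which reaches from 5 kb before to 1 kb after the gene start and on to the neighbouring genes' such regions, at most 1 Mb. This held for 57.1% of collagen genes (interval 41.0 to 72.3%), against 48.4% of all autosomal protein-coding genes, a background inside that interval. With the 5 kb and 1 kb around the start alone as the domain, the count was 11 genes in the body or domain and 4 in the domain. No share of all genes was counted with this smaller domain, so these counts have no background. In the full regulatory domain alone the share of collagen genes was also 57.1%, against 47.2% of all genes. A peak was centred in the gene body of 10 collagen genes (23.8%, interval 12.1 to 39.5%), against 26.3% of all genes. Within 1 kb of an annotated start site of the gene, a peak was centred in 4 collagen genes, Col12a1, Col6a2, Col13a1 and Col8a2. This share of 9.52% (interval 2.66 to 22.6%) lay below the background of 28.6%, which was outside the interval.

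**Figure D1:**
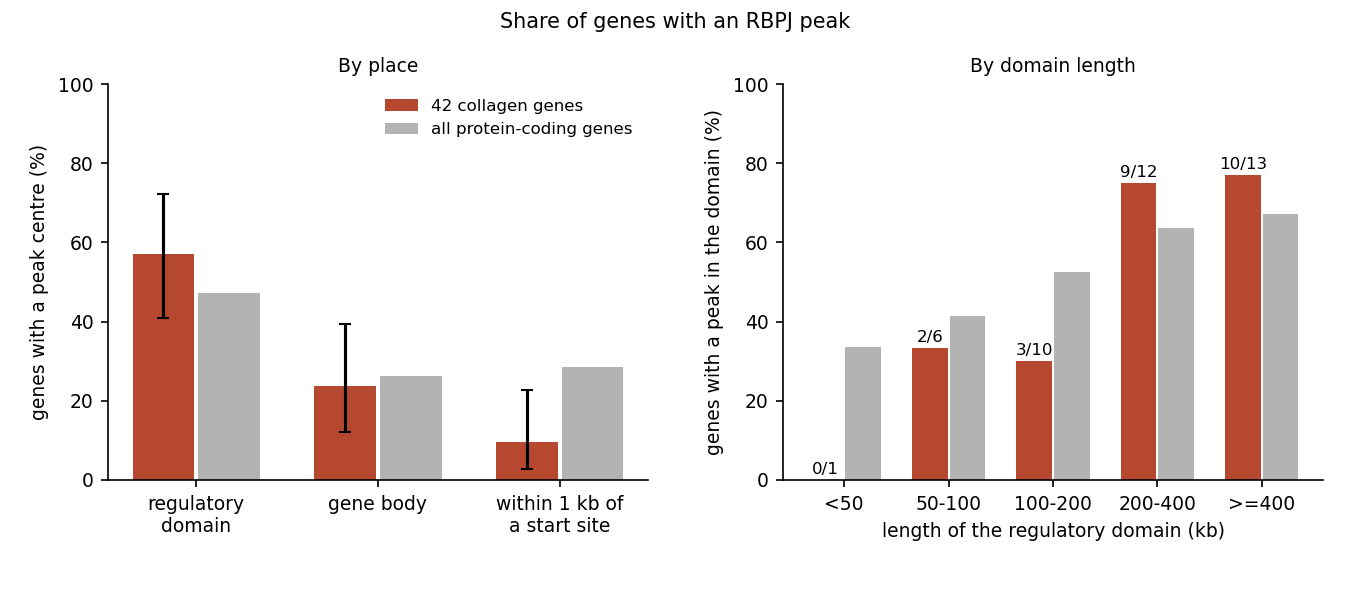
Share of genes with an RBPJ peak centre, in percent. Left, by place, for the 42 collagen genes (with 95% exact binomial intervals) and all 20807 autosomal protein-coding genes; the collagen share is lower than that of all genes within 1 kb of a start site (9.52% against 28.6%). Right, by length of the regulatory domain, with the number of collagen genes above each bar; shares rise with domain length in all genes from 33.5% to 67.3%.

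Collagen genes are long and sparsely surrounded. Their median length was 111 kb against 17.6 kb for all genes, and their median domain was 269 kb against 86.1 kb. Per 100 kb of domain they held 0.420 peaks, against 0.418 for all genes, and per 100 kb of gene body 0.372 against 0.682. Where the domain was shorter than 200 kb, 5 of 17 collagen genes had a peak in it (29.4%, against 40.9% of all genes with such domains). Where it was 200 kb or longer, 19 of 25 had one (76.0%, against 65.4%). Collagen genes with a peak had a median domain of 336 kb, and those without one 142 kb. Chromosome 4, which holds 5 collagen genes, carried a peak near 14.7% of its genes and chromosome 7, with no collagen gene, near 10.7%. Without these chromosomes, which stand apart, 22 of 37 collagen genes (59.5%) and 55.3% of all genes had a peak.

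The 24 genes shared 56 distinct peaks in 66 gene-peak links, since 10 peaks belonged to 2 collagen genes each. Of the links, 38 were upstream of the gene start and 28 downstream, at a median distance of 72.1 kb (0.132 to 635 kb). Peak centres lay in a collagen gene body in 18 cases, 16 of them in an intron; 8 lay in the body of another gene and 30 outside protein-coding genes. In 51 of the 56 cases the centre was in the domains of 2 genes. The nearest start site belonged to a collagen gene for 35 peaks and to another gene for 21, so that assignment of the latter to a collagen gene rests on the domain rule. When only the nearest start site was used (a rule added after the data were seen), 17 genes and 35 peaks remained. The share of all genes under that rule was not counted. A single peak was found for 12 genes; 5 had 2 or 3, and 7 had 4 or more, namely Col4a2 (10), Col5a1 (9), Col4a1 (8), Col12a1 (5), Col6a1, Col6a2 and Col6a3 (4 each).

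**Figure D2:**
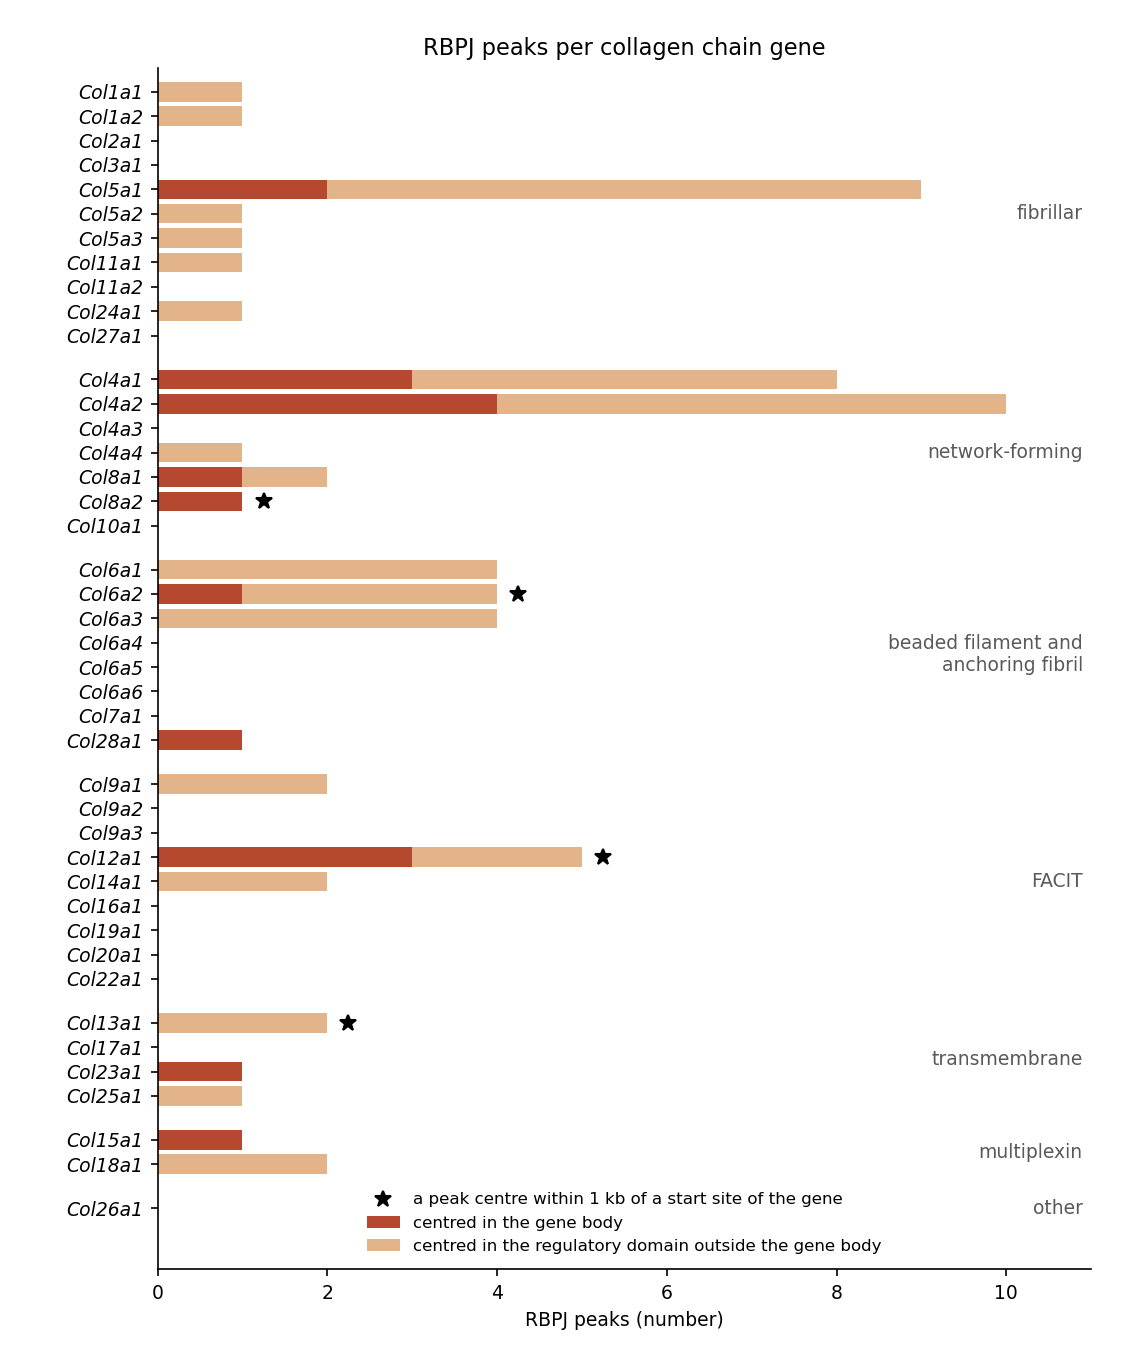
Number of RBPJ peaks for each of the 42 collagen genes, grouped by collagen class. Dark bars are peaks centred in the gene body and light bars those in the regulatory domain outside it; a star marks a peak centre within 1 kb of a start site of the gene. Col4a2, with 10, and Col5a1, with 9, have the most, and 18 genes have none.

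The counts by collagen class that follow stand beside the 48.4% of all genes with a peak in the body or domain, and with 1 to 11 genes a class they are descriptions only. Densities by locus are given only for genes with 4 or more peaks, picked for that count. Over all collagen domains the density was 0.420 per 100 kb, against 0.418 for all genes. Among the network-forming collagens, 5 of 7 genes had a peak, and the pair Col4a1 and Col4a2 held 11 of the 56. These genes encode the α1 and α2 chains of the type IV collagen found in nearly all basement membranes, and they are transcribed away from each other from starts 21 bp apart on chromosome 8. Their joined domains (chr8:11013459-11477709, 464 kb) carried 2.37 peaks per 100 kb, against 0.484 over chromosome 8. The widest peak assigned to any collagen gene, chr8:11309705-11312958 (3254 bp, 4 TGGGAA sites), spans both starts. Its centre, in intron 1 of 51 of Col4a1, was 1474 bp from the start of Col4a2 and 1495 bp from that of Col4a1, so the pair was not counted within 1 kb. When any overlap was counted in place of the centre, Col4a1 and Col4a2 joined the genes with a peak there, which made 6. The share of all genes by overlap was not counted, and the background given above is for centres.

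Inside Col4a1, 2 further peaks lay in intron 2, at chr8:11249855-11250057 (203 bp, 2 sites) and chr8:11258106-11260753 (2648 bp, 3 sites), 62.9 and 53.4 kb from the gene start. Inside Col4a2 there were 4, all intronic: chr8:11327954-11328530 (577 bp, 0 sites) and chr8:11344696-11345100 (405 bp, 1 site) in intron 3 of 47, chr8:11387312-11387551 (240 bp, 1 site) in intron 4 and chr8:11442649-11443235 (587 bp, 1 site) in intron 41. The remaining 4 lay outside both genes. Of these, 3 were past the 3′ end of Col4a1, at chr8:11155139-11156358, chr8:11171595-11171827 and chr8:11187754-11188225, the last of them within the antisense gene Gm15418. The other, chr8:11476482-11477390, was in the intron of Rab20, 1774 bp from the Rab20 start. Of the 11 peaks, 9 held TGGGAA, with 17 sites in all, and 4 held it in their central 200 bp.

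The narrow peaks in Col4a1 intron 2 and Col4a2 intron 4 are shown because their central 200 bp hold the recognition sequence. Sequences throughout are the forward strand of GRCm38, read 5′ to 3′, and capitals mark TGGGAA or its reverse complement TTCCCA. In Col4a1 intron 2 the pair faces each other with 20 bases between, and in Col4a2 intron 4 a single site begins 73 bp before the peak centre.
Col4a1 intron 2, chr8:11249856-11250055: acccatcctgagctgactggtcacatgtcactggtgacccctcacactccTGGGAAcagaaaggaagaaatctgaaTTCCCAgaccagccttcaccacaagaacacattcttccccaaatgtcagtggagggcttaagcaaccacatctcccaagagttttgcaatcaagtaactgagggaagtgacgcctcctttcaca
Col4a2 intron 4, chr8:11387331-11387530: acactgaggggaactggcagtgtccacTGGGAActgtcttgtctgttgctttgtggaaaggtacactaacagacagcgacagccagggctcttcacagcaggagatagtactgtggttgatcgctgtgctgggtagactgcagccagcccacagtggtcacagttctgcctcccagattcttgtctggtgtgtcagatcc

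Pairs that face each other (TGGGAA or TGAGAA, then the reverse complement of either, with 11 to 21 bases between) were found in 2 of the 56 collagen peaks, both in Col4a1 intron 2. In the wider peak the sites were 14 bases apart. The share of 3.57% stood beside 2.63% of all 10947 autosomal peaks.

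The other type IV genes on autosomes, Col4a3 and Col4a4, also start close together, and encode chains of the glomerular basement membrane. Col4a4 had 1 peak, in intron 6 of 6 of Rhbdd1 (chr1:82427237-82429844), 158 kb downstream of its start, and Col4a3 had none; the closest peak to a Col4a3 start was 125 kb away. Type VIII collagen, a short-chain network collagen of vessel walls and of Descemet's membrane, had peaks assigned to both genes. In Col8a2 the peak (chr4:126300839-126301297, 459 bp) was in intron 2 of 3, 14.3 kb from the gene start and 538 bp from the start of another transcript. In Col8a1 a peak of 439 bp was in intron 2 of 3 (chr16:57671662-57672100, 82.9 kb from the start, 2 sites), and another lay 635 kb upstream, the longest link of all. Both were nearer to a start of another gene, Cmss1 (65017 bp away) for the first and Dcbld2 (18784 bp away) for the second. Col10a1, the network collagen of hypertrophic cartilage, had no peak centre in its domain, though an interval reached into it. The Col8a2 window holds 1 site, of the longer form GTGGGAA read on the reverse strand.
Col8a2 intron 2, chr4:126300968-126301167: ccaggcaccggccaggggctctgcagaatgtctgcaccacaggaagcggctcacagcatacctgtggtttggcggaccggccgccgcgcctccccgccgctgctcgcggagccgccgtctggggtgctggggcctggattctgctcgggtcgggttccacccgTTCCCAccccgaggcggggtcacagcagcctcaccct

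**Figure D3:**
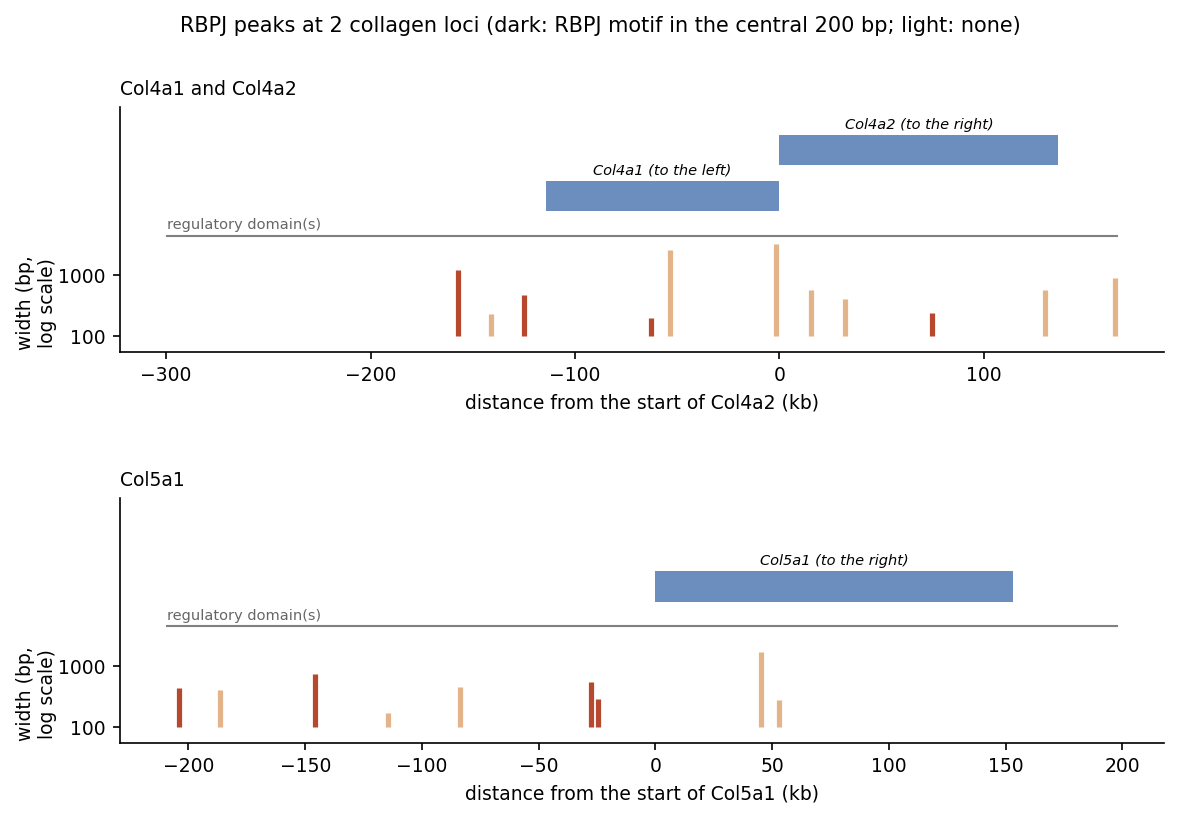
Peaks along the Col4a1 and Col4a2 locus and the Col5a1 locus, against distance from the start of the named gene in kb. Blue bars are gene bodies with the direction of transcription in brackets, the grey line is the regulatory domain or joined domains, and vertical lines are peaks with height by width in bp (log scale); dark ones have TGGGAA or its reverse complement in the central 200 bp. The loci have 11 and 9 peaks, of which 4 each are dark.

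Beaded filament and anchoring fibril collagens had a peak at 4 of 8 genes, and 3 of these encode the common chains of type VI collagen, which forms microfibrils next to basement membranes. Col6a2 and Col6a1 lie in tandem on chromosome 10 with 85.2 kb between them, and their joined domains (384 kb) held 5 peaks, or 1.30 per 100 kb against 0.488 over the chromosome. At the Col6a2 start, the peak chr10:76623228-76623550 (323 bp) was centred in the untranslated part of exon 1 of 28, 64 bp from a start site, and held no TGGGAA. Between the genes, outside any protein-coding gene, were 3 peaks, of which chr10:76642687-76643627 (941 bp, 4 sites) and chr10:76648648-76648998 (351 bp, 3 sites) are described here. They were 19.5 and 25.2 kb upstream of Col6a2 and 83.0 and 77.3 kb downstream of the start of Col6a1. Before Col6a1, 7.91 kb upstream, was chr10:76732885-76735268 (2384 bp, 2 sites).

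Both of these peaks between Col6a2 and Col6a1 held the recognition sequence more than once, and their central 200 bp are printed to show how the sites lie (chosen after the values were seen). In the first window 3 sites are 118 and 35 bases apart, and in the second 2 sites on the same strand are 6 bases apart.
19.5 kb upstream of Col6a2, chr10:76643057-76643256: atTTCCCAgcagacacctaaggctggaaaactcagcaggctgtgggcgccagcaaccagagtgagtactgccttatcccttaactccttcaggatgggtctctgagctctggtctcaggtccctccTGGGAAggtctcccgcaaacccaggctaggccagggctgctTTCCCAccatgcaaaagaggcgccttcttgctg
25.2 kb upstream of Col6a2, chr10:76648723-76648922: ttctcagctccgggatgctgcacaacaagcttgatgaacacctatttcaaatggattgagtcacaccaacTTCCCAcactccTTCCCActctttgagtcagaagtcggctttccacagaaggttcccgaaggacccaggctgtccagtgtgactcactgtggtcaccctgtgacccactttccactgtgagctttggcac

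Col6a3, the third common type VI chain, had 4 peaks outside any gene: 2 downstream of its 3′ end (105 and 210 kb from the start) and 2 upstream, towards Mlph (53.1 and 65.5 kb). The one 105 kb away, chr1:90738089-90739547, held 5 sites and alone had a Col6a3 start nearest. The one 210 kb away was nearer to Cops8, and the 2 upstream were nearer to Mlph. Col28a1, a von Willebrand factor A domain collagen, had 1 peak, in intron 13 of 34 (chr6:8106886-8107751, 866 bp, 2 sites, 85.3 kb from the start). Col6a4, Col6a5 and Col6a6, which encode alternative type VI chains and lie side by side on chromosome 9, had none, and neither had Col7a1, which forms the anchoring fibrils of skin. The closest peak to a start was 63.4 kb away for Col6a4, 200 kb for Col6a5, 314 kb for Col6a6 and 84.8 kb for Col7a1.

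Of the 11 fibrillar collagen genes 7 had a peak, none within 1 kb of a start site and only Col5a1 in the gene body. Col5a1 encodes the main chain of type V collagen, which nucleates type I fibrils, and its domain (chr2:27677441-28083884, 406 kb) held 9 peaks. That was 2.21 per 100 kb against 0.558 over chromosome 2 and 0.686 in the domains of all autosomal genes with a peak. At least 9 peaks in the domain were found for 59 of the 20807 genes (0.284%). This share does not allow for domain length, whose median over all genes was 86.1 kb. Col5a1 was also singled out for having the most domain peaks of the 42 genes. From the left, 3 of its 9 peaks were in introns 1 and 2 of 9 of Rxra, the neighbouring nuclear receptor gene (204, 187 and 146 kb upstream of Col5a1). Then 4 lay between the genes at 114, 83.7, 27.6 and 24.6 kb upstream, and 2 were in intron 4 of 65 of Col5a1, at chr2:27930584-27932282 (1699 bp, 5 sites) and chr2:27939383-27939661 (279 bp, 0 sites). The 4 leftmost were nearer to a start of Rxra than to one of Col5a1. Altogether 5 of the 9 held TGGGAA, with 11 sites.

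The other fibrillar genes with a peak had 1 each. Col1a1 and Col1a2 encode the chains of type I collagen, the chief fibril of most connective tissue. At Col1a1 the peak was 19.9 kb upstream (chr11:94915725-94916826, 0 sites) and at Col1a2 it was 86.5 kb upstream (chr6:4417230-4419459, 3 sites). Col24a1 had a narrow peak of 238 bp 24.2 kb upstream, Col5a2 one 173 kb upstream and nearer to Wdr75, Col5a3 one 54.1 kb downstream of its start, nearer to Olfm2, and Col11a1 one 448 kb downstream, nearer to Olfm3. Col3a1, a partner of type I collagen in vessel walls, had none, and the closest peak to its start was 336 kb away and the same interval as that of its neighbour Col5a2. Col2a1 and Col11a2 of cartilage and Col27a1 had none either, with closest peaks at 40.4, 9.30 and 453 kb.

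FACITs, which bind to the surface of fibrils, had a peak at 3 of 9 genes (48.4% of all genes). Col12a1 had 5, in a domain of 1040 kb, and its density of 0.481 per 100 kb was near the 0.533 of chromosome 9. The start-site peak chr9:79718502-79718896 (395 bp) was centred 21 bp from a start and 132 bp from the outermost gene start, in an untranslated region of one of its transcripts. Both of its TGGGAA sites were within 100 bp of its centre. Other peaks were in introns 16 and 59 of 65 (37.7 and 109 kb from the start, 0 sites each), and past the 3′ end at 170 and 503 kb. The stretches around the 2 sites at the start are given at 30 bases because both lie in annotated untranslated sequence, at 61 bp before and 78 bp after the centre; Col12a1 is on the reverse strand.
Col12a1 first site, chr9:79718626-79718655: gcctttgccgacTGGGAAgagactccgcgc
Col12a1 second site, chr9:79718765-79718794: gaggtctactttTGGGAAcgtgtgcatact

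Col9a1, a cartilage FACIT, had peaks 6.0 and 69.7 kb upstream, the latter nearer to a start of Fam135a. The peak 6.0 kb away was only 175 bp wide, just outside the 5 kb region. It is printed (chosen after its value was seen) because its single site begins 12 bp before its centre.
6.0 kb upstream of Col9a1, chr1:24171520-24171694: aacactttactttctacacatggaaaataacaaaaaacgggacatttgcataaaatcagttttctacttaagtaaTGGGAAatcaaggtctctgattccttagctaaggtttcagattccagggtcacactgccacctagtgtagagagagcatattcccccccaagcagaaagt

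Col14a1 had 2 peaks in intron 1 of 8 of Deptor, 172 and 175 kb upstream, of which the latter was 569 bp from a Deptor start. Col9a2, Col9a3, Col16a1, Col19a1, Col20a1 and Col22a1 had none. Col9a3 had a peak 8.35 kb from a start site that fell just outside its domain, and at Col22a1 the closest peak was 804 kb away, the farthest of all members. Over the 18 genes without a peak, this distance had a median of 90.7 kb.

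Transmembrane collagens had a peak at 3 of 4 genes (48.4% of all genes). Col13a1, whose product sits at cell-matrix junctions, had a wide one (chr10:61978405-61980859, 2455 bp, 2 sites) centred 524 bp upstream of its start, and a second 132 kb upstream that was 92 bp from a start of Fam241b. Col23a1 had one in intron 5 of 28, 250 kb into the gene (298 bp, 1 site), and Col25a1 one 43.8 kb upstream that was nearer to Sec24b. Col17a1, the collagen of hemidesmosomes, had none, and its closest peak was 39.4 kb from a start. The Col23a1 window holds 1 site, of the longer form GTGGGAA.
Col23a1 intron 5, chr11:51539755-51539954: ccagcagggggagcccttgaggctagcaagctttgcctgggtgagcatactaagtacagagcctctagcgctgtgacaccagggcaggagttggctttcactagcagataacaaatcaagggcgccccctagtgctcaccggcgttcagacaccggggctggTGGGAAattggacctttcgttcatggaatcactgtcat

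Both multiplexins, proteoglycan collagens of basement membranes, had peaks. In Col15a1 it was in intron 28 of 39 (chr4:47293657-47294355, 699 bp, 4 sites), 85.8 kb from the gene start and 5.72 kb from the start of another transcript, and it also fell in the domain of Tgfbr1. Col18a1, whose C-terminal fragment is endostatin, had peaks 44.7 kb (0 sites) and 85.8 kb upstream; the latter held 6 sites, the most of any collagen peak, and was nearer to Pofut2. Col26a1, placed in no class, had none.

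Across the 56 peaks the median width was 582 bp (quartiles 344 and 1121 bp, range 169 to 3254 bp), against 689 bp for all autosomal peaks and 519 bp for those over 1 kb from any start site. Median GC content was 52.2%, against 55.8% for all; for peaks over 1 kb from any start site it was 51.8% in collagen peaks and 49.6% in all. TGGGAA, searched on both strands, was in the central 200 bp of 23 peaks (41.1%, interval 28.1 to 55.0%), against 25.7% of all autosomal peaks. The share depends on position, being 16.0% for peaks within 1 kb of a start site and 35.3% for the 5515 farther away. The 50 collagen peaks over 1 kb from any start site held it in 40.0% (interval 26.4 to 54.8%), and the 35.3% lay inside that interval. In the whole peak it was found in 73.2% of collagen peaks and 64.8% of all, and over 1 kb from any start site in 72.0% and 71.6%. Narrow collagen peaks, under 500 bp, held it centrally in 14 of 25 cases (56.0%) and wider ones in 9 of 31 (29.0%). Over 1 kb from any start site these shares were 54.5% (12 of 22) and 28.6% (8 of 28) for collagen peaks, and 48.6% and 22.6% for all peaks. Promoter sequences from RefSeq (GRCm38.p6, 250 bases before to 50 after the start) were matched for 33 of the 42 genes, and 10 of their 36 promoters (27.8%) held TGGGAA, as did 25.6% of 32851 promoters.

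**Figure D4:**
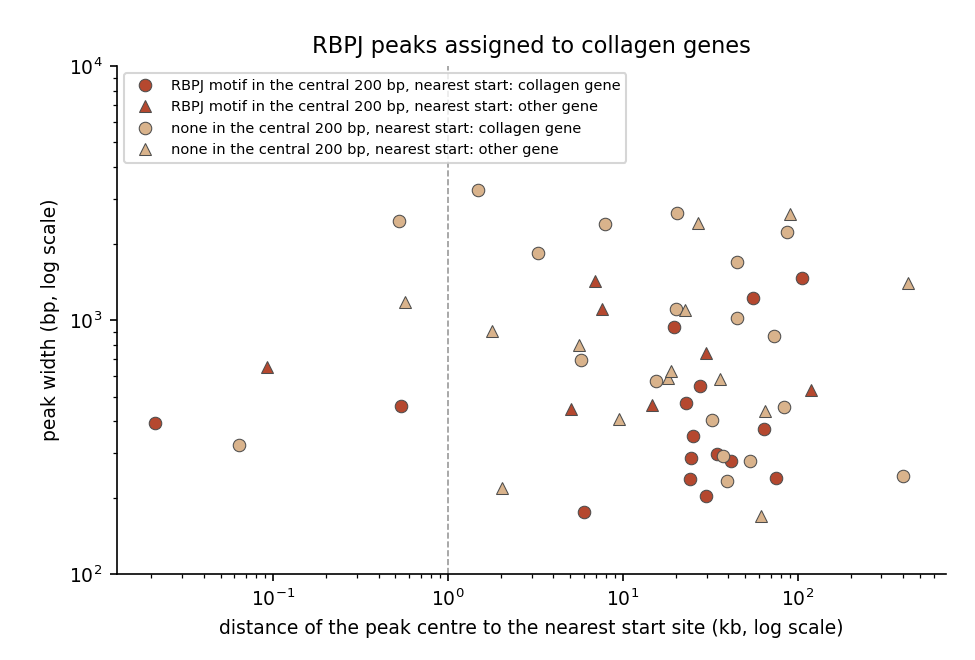
Width of the 56 peaks assigned to collagen genes (bp, log scale) against the distance of their centre to the nearest protein-coding start site (kb, log scale; dashed line at 1 kb). Dark points hold TGGGAA or its reverse complement in the central 200 bp; circles have a collagen gene and triangles another gene nearest. Only 6 peaks lie left of the line, and dark points make up 14 of the 25 under 500 bp.

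Genes that act on collagen after its synthesis were counted the same way, from a list of 39. A peak was found for 25 of them (64.1%, interval 47.2 to 78.8%, against the 48.4% of all genes), and for 17 (43.6%, interval 27.8 to 60.4%, against 28.6%) within 1 kb of a start site. Both backgrounds lay inside the intervals, and the list was drawn up with earlier results of these data known. In hydroxylation and folding, 9 of 16 genes had a peak, of which 7 near the start: P4ha2 and P4hb of prolyl 4-hydroxylase, P3h2 and P3h4, the lysyl hydroxylases Plod2 and Plod3, and Serpinh1, the collagen chaperone Hsp47. Both secretion genes had one near the start (Mia3, which loads procollagen into transport carriers, and Sec23a of their coat). In propeptide processing there were 4 of 8, with Bmp1, a procollagen C-proteinase, and its enhancer Pcolce near the start. In cross-linking there were 3 of 5, the lysyl oxidases Lox, Loxl3 and Loxl4, all near the start. Of the receptors 7 of 8 had a peak, with Ddr1, Itga1 and Itga2 near the start.

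A peak list holds no expression, so the labelled cell type could not be checked with it. Of 5 pericyte markers, 4 had a peak in the body or domain (Pdgfrb, Rgs5, Cspg4 and Notch3; background 48.4% of all genes) and Anpep had none. At Pdgfrb it was an interval of 185896 bp, the widest of the list. Of the 5, Notch3 had one within 1 kb of a start site (background 28.6%).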

How the data were processed

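RBPJ, histone marks and input were profiled by ChIP-seq in RD1 cells (2 replicates each), and groups followed the sample titles. According to the study's methods, the authors used bowtie to map reads to GRCm38, removed duplicates with Picard and SAMtools, ran the peak callers Macs2 and Peakranger on either replicate, joined calls up to 2 kb apart, required 3 or more calls to overlap and filtered against a blacklist. The RBPJ peak files they deposited hold 1 consensus list with the start and the end of each peak in bp. Merging widens intervals, so a centre need not be the bound site, and library depth was not available in the sources used here.

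Starts were read as counted from 1; 0 peaks ran past a chromosome end. Genes, transcripts and start sites were those of GENCODE M21, and domains were built as GREAT does (basal region plus extension). The RefSeq GRCm38.p6 genome gave sequences. Annotation is that of the transcript with the longest coding sequence, unless stated. Domain assignment and motif counts were tested on simulated data. Collagen genes, classes and the other lists were chosen with earlier results of these data known. Every collagen gene was placed in a count; peaks in the gene body or within 5 kb were to be described singly, and sequence shown where these held a central TGGGAA. Farther peaks, and the sequences at Col6a2 and Col9a1, were singled out after their values were seen. The description of 1 peak is not reported here. Alternatives were overlap in place of the centre, a minimum width, starts counted from 0, smaller domains, other distances and start sites, other motif windows, and each replicate left out. Software was matplotlib 3.10.9, scipy 1.17.1, pandas 2.3.3 and numpy 2.4.6 under Python 3.11.15.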

Additional observations from a re-analysis of the deposited data

How the results depend on the processing

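Of 63 alternatives over 7 results, 21 could not move by construction (either replicate of identical files left out, and the widest 1% of peaks left out, all wider than any collagen peak). Of the other 42, 30 stayed within 1.5 times the count or within the interval of the value given above. Peaks of at least 500 bp left 6 genes with a peak in the gene body, 1 gene within 1 kb of a start site (Col13a1) and 31 peaks, whose median width was 1101 bp. The domain without its extension left 4 genes with a peak in the domain, 11 in the body or domain and 19 peaks. An extension of at most 100 kb left 37 peaks, and the nearest start site rule 35. TGGGAA was found in 23.2% of the central 100 bp and in 73.2% of whole peaks, and GTGGGAA in 17.9% of the central 200 bp. For all autosomal peaks these shares were 15.3%, 64.8% and 9.24%. Over 1 kb from any start site, the central 100 bp held TGGGAA in 26.0% of collagen peaks and 22.2% of all. There the central 200 bp held GTGGGAA in 16.0% and 12.9%. The smaller domains and the width minimum remove peaks by construction. Any overlap of at least 1 bp gave 25 genes (Col10a1 added), 11 with a peak in the body (Col13a1 added) and 59 peaks. For none of the gene counts in this paragraph was the share of all genes under the same rule counted. No paired analysis was possible because both replicates gave 1 list and no group was compared with another. With no score or depth, a peak near the calling threshold cannot be told from a strong one, and a gene without a peak may have one below it.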

Other observations

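The X-linked type IV genes Col4a5 and Col4a6, which lie outside the autosomal set, had 0 peaks in the body or domain, on a chromosome with 144 peaks. The share of X-linked genes with a peak was not counted, so this absence has no background.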
